A study of Rattus norvegicus with 132 samples.

Results

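Ly6al, Ly6i and Pinlyp are 3 of the 21837 genes in the deposited count tables, and they were found there by symbol. All 3 were selected on their counts in these tables, chosen by a very large rise after irradiation in untreated rats, which for Ly6al differed between the 2 tissues. Their levels with and without irradiation are therefore a description and carry no test. The tests were kept to other contrasts, namely the treated rats against their vehicles, the change from day 4 to day 7 in those rats, and the covariation of the genes between libraries of a group. Earlier results of these data were known when the genes and tests were chosen, so full independence from the choice is not assured. The tissues were also compared in the treated and vehicle rats, but a tissue difference of Ly6al was part of the choice.

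The series holds 132 libraries of epithelium from colon and jejunum of Sprague Dawley rats, in 22 groups of 6. Non-irradiated, untreated rats carry no day in the labels. All other rats had abdominal irradiation in 5 fractions of 4 Gy, given up to day 4, with tissue taken at day 4 or day 7, and each such group exists for both tissues. These were irradiated rats with no further treatment, irradiated rats given an oral vehicle (water) or compound Kushen powder by mouth, and irradiated rats given an intraperitoneal vehicle (0.25% Tween-80 in 25 mM HEPES) or compound Kushen injection. Compound Kushen is a herbal preparation, and some labels call the powder a pill. The labels used here give neither the age of the rats nor whether the days count from the start or the end of irradiation. They also do not say whether a colon and a jejunum library with a shared number come from 1 rat, so p-values measure the spread between libraries. Library names fall into 3 series: series 1 and series 2 each gave 3 of the 6 libraries of every non-injected group, and every injected library is of series 3, so injected rats were tested only against each other, and their levels beside those of other groups are a description.

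Ly6al and Ly6i belong to the Ly6/uPAR superfamily, small proteins with the disulfide-rich three-finger fold that are mostly held on the cell surface by a lipid (GPI) anchor. In mouse, Ly6a (Sca-1) is widely used as a marker of the fetal-like state that intestinal epithelium enters while it regenerates, and Ly6 genes are known targets of interferon. Pinlyp carries the same type of domain, is predicted to be secreted, and is named as an inhibitor of phospholipases A2, enzymes that release fatty acids from membrane lipids.

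All 3 genes matched the RefSeq gene table of rat assembly GRCr8 by symbol. Ly6al and Ly6i lie there in the Ly6 cluster of chromosome 7, where Ly6i stands between Ly6al1 and LOC108351510 and Ly6al lies within the span of Ly6cl1, and Pinlyp lies on chromosome 1 between Irgq and Xrcc1. The counts were made on another build, mRatBN7.2, and without a stated strand setting. Reads that match several genes of this cluster, or the overlap with Ly6cl1, may therefore have been split among genes or lost, and the levels of Ly6al and Ly6i are uncertain to that extent. No promoter entry was available for Ly6al, so its promoter was neither shown nor searched. The sequence before the annotated start of Ly6i and of Pinlyp is shown, as both genes had an entry and went from almost no reads to clear expression. It is the RefSeq sequence of GRCr8, 250 bases 5′ to 3′ on the gene's strand, with TATAA in capitals.
Ly6i promoter, chr7:108948067-108948316, minus strand: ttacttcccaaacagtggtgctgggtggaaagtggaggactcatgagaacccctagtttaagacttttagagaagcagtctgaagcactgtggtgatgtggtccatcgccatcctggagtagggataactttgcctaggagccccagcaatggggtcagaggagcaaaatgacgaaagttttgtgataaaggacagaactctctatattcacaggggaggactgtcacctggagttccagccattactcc
Pinlyp promoter, chr1:89267914-89268163, minus strand: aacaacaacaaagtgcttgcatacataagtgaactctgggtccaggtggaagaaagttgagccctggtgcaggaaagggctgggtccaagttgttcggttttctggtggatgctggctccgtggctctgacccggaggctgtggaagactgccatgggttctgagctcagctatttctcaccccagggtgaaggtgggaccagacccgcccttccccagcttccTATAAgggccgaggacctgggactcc

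Both strands of the 300-base windows, which run on to 50 bases past the start, were searched for 6 motifs. Neither gene's window held a match to TTCNNNGAA (STAT), the interferon-stimulated response element, GGAATG (TEAD), TGANTCA (AP-1) or the NF-kappa-B motif. Among 33469 promoters of this length, 8.87%, 3.92%, 14.19%, 7.33% and 1.3% held a match to these motifs in the same order. TATAA, searched after the sequences had been seen, had 1 match for Pinlyp, 26 bases before its start, and 0 for Ly6i, and 26.22% of the promoters held one.

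The libraries held 17.2 to 19.8 M counts each, and mitochondrial genes took 2.97% to 37.99% of them. Markers of epithelium were high in every group (median summed level 12100 CPM in non-irradiated colon and 26490 CPM in non-irradiated jejunum), while markers of squamous epithelium summed to at most 0.506 CPM in any library. Levels below are CPM, counts relative to the library size, scaled with edgeR's TMM factors over all 132 libraries. They are not divided by transcript length, so they compare groups within a gene and not genes with each other. The epithelium is a mixture in bulk, in which more cells that express a gene and more RNA per cell cannot be told apart.

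Ly6al was already abundant in normal colon and almost silent in normal jejunum. In non-irradiated colon the 6 libraries ran from 2416 to 3579 CPM with a median of 3111, which is 0.275% to 0.363% of all counts in a library. Non-irradiated jejunum ran from 0.577 to 1.25 CPM with a median of 0.702, and its 6 libraries held 58 counts together. In irradiated untreated rats colon ran from 3828 to 6247 CPM (median 4842) at day 4 and from 2900 to 6814 CPM (median 4153) at day 7. Irradiated colon at day 4 thus lay above every non-irradiated colon library, while the ranges overlapped at day 7. Jejunum of the same groups ran from 212 to 2248 CPM (median 938) at day 4 and from 101 to 2253 CPM (median 580) at day 7, so that every irradiated library stood far above every non-irradiated library. The ratio of group means over non-irradiated rats was 1.68 and 1.47 in colon and 1339 and 1012 in jejunum, at day 4 and day 7.

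Ly6i, the other member of the Ly6 cluster, was near 0 in both tissues without irradiation. Its 6 non-irradiated colon libraries held 2 counts together and the 6 jejunum libraries 4, with no library above 0.221 CPM. In irradiated untreated colon it ran from 0.0435 to 4.66 CPM (median 0.31) at day 4 and from 4.52 to 6.81 CPM (median 5.4) at day 7. Colon libraries at day 4 were thus spread, with 4 of 6 under 0.4 CPM and the others at 1.57 and 4.66 CPM, and at day 7 they were close together. Jejunum had the opposite order in time, with 2.85 to 34.4 CPM (median 15.4) at day 4 and 1.83 to 6.7 CPM (median 2.79) at day 7. Over the 2 counts of non-irradiated colon the ratio was 70.6 (95% exact counting interval 19.2 to 588.5) at day 4 and 338 (93.2 to 2794) at day 7. In jejunum the ratio of group means was 346 at day 4 and 65.0 at day 7, on 4 counts in the non-irradiated group. Intervals and bounds of this kind cover counting error only.

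Pinlyp had 2 counts in all non-irradiated colon libraries and 0 in all non-irradiated jejunum libraries. Irradiated untreated colon ran from 9.86 to 38.6 CPM (median 13.6) at day 4 and from 10.2 to 27.4 CPM (median 12.1) at day 7. In jejunum the range was 4.24 to 36.9 CPM (median 20.0) at day 4 and 0.562 to 9.45 CPM (median 6.68) at day 7. Every irradiated library stood above every non-irradiated library in both tissues. The ratio over the 2 counts of colon was 1138 (95% exact counting interval 314.7 to 9401) at day 4 and 957 (264.6 to 7908) at day 7. Jejunum was at least 527-fold higher at day 4 and at least 156-fold higher at day 7, against 3 counts over the non-irradiated group.

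Markers of other cell types also differed between these groups. In colon the summed neutrophil markers had a median of 0.565 CPM without irradiation (0.207 to 1.36), 35.5 CPM at day 4 (6.57 to 96.2) and 23.8 CPM at day 7 (17.8 to 38.4), and the fibroblast markers 4.69, 27.1 and 12.7 CPM. In jejunum the neutrophil medians were 0.94 (0.0866 to 1.95), 4.27 (1.02 to 14.9) and 3.58 CPM (0.669 to 8.21), with S100a8, S100a9, Cxcr2 and Mpo at 0 in all non-irradiated libraries, and the fibroblast medians 1.11, 2.87 and 11.3 CPM. Macrophage medians were 170, 244 and 123 CPM in colon and 61.0, 63.5 and 54.1 CPM in jejunum, and T cell medians 2.09, 2.59 and 0.423 CPM and 14.2, 1.5 and 0.355 CPM. Their part in the levels of the 3 genes was not tested.

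**Figure D1:**
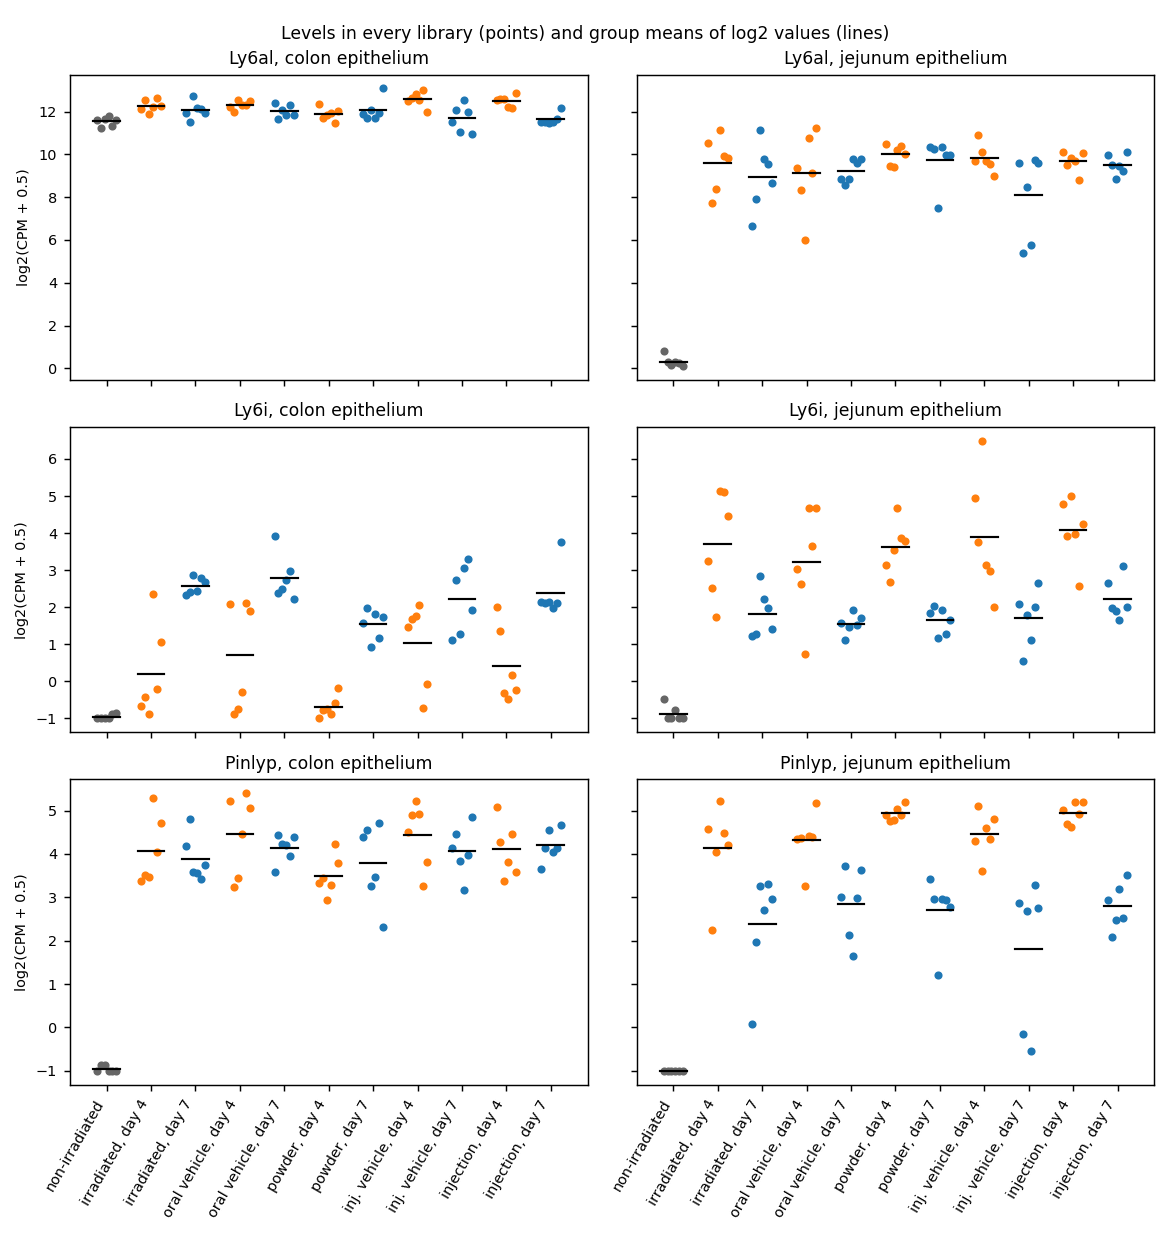
Levels of Ly6al, Ly6i and Pinlyp in all 132 libraries, as log2(CPM + 0.5) on the vertical axis, by group on the horizontal axis, with colon at left and jejunum at right. Points are libraries (grey non-irradiated, orange day 4, blue day 7) and lines are means of the 6 log2 values; all irradiated jejunum libraries lie above the non-irradiated ones for each gene, and the orange points of Ly6i lie low in colon and high in jejunum.

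The treated and vehicle groups showed the same kinds of level. Ly6al in colon had medians from 2931 CPM (injection, day 7, range 2854 to 4624) to 6163 CPM (injected vehicle, day 4, range 4081 to 8143) over the 8 treated and vehicle groups. In jejunum its medians ran from 559 CPM (injected vehicle, day 7, range 41.9 to 860) to 1117 CPM (powder, day 7, range 178 to 1307). Sorted by mean, neighbouring groups of Ly6al differed by more than the larger of their 2 SDs in 0 of 10 steps in colon and 1 of 10 in jejunum, the step from the lowest irradiated to the non-irradiated group. For Ly6i this held in 0 of 10 steps in colon and again 1 of 10 in jejunum, from oral vehicle at day 7 to non-irradiated. Pinlyp had 1 such step in colon, from powder at day 4 to non-irradiated, and 2 in jejunum, of which the upper parted all 5 day 4 groups (means 20.1 to 30.5 CPM) from all 5 day 7 groups (4.8 to 7.64 CPM).

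The libraries of the 2 non-injected series differed in jejunum. Over the 6 irradiated non-injected jejunum groups, Ly6al was higher in series 2 than in series 1 in all 6, by a median of 0.876 on the log2(CPM + 0.5) scale (0.439 to 2.47). Ly6i and Pinlyp were higher in series 2 in 5 of 6 such groups each, by medians of 0.655 and 0.515. The series was therefore a term in every fit of non-injected libraries.

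Ly6al stood apart from 19 other genes of like colon restriction in the irradiated jejunum. After the values had been seen, genes were picked that had at least 100 CPM in non-irradiated colon and no more than 1/100 of that level in non-irradiated jejunum, which gave 19 genes besides Ly6al, such as Car1 (a carbonic anhydrase of colonocytes), Trpv6 (a calcium channel) and Hsd11b2 (which inactivates glucocorticoids). In the 10 irradiated jejunum groups, the median of the 19 was 0.122% to 0.313% of a gene's level in non-irradiated colon, beside 0.0531% in non-irradiated jejunum. Ly6al went from 0.0254% in non-irradiated jejunum to between 15.9% (injected vehicle, day 7) and 35.4% (powder, day 4). None of the 19 was above Ly6al in any irradiated group, and the highest of them was St6galnac6 at 8.1% in oral vehicle at day 7. Since Ly6al was chosen for its rise, these percentages are a description. Genes higher in colon that fell outside these cuts, such as Mecom and Il17re below, were not among the 19.

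**Figure D2:**
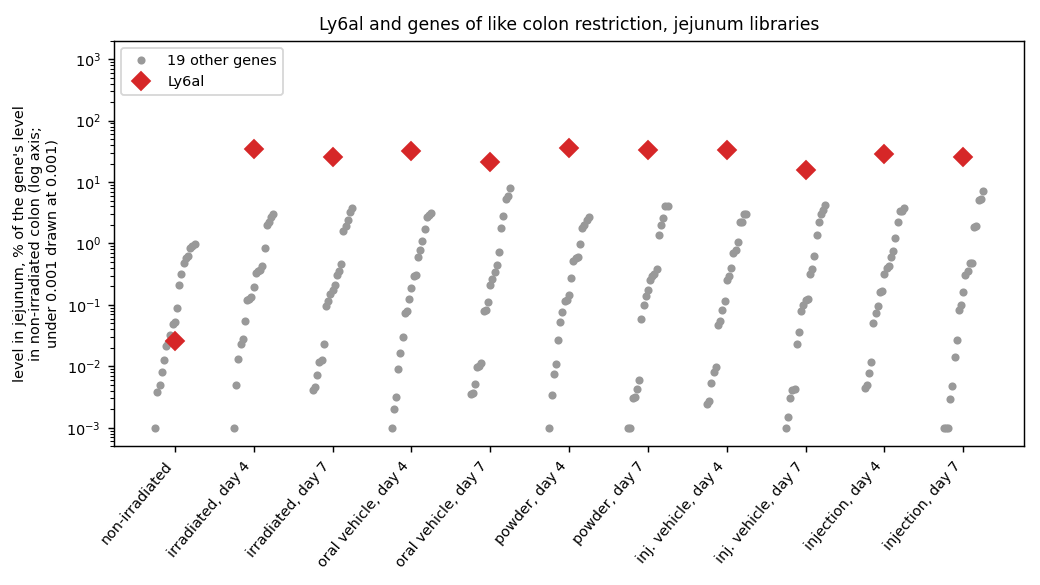
Level in jejunum as a percentage of the same gene's mean level in non-irradiated colon (log axis, group means of 6 libraries), for Ly6al (red) and 19 other genes with low jejunal and high colonic expression in non-irradiated rats (grey), by group. Ly6al lies among the grey points in non-irradiated rats and above all of them in each irradiated group.

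A gene was called where the adjusted p of edgeR's quasi-likelihood F test, with Benjamini-Hochberg adjustment over all genes of the fit, was under 0.05. The first question was what the powder changed relative to its vehicle. At day 4 in colon, Ly6i and Pinlyp were called lower with powder and Ly6al was not, where 11.8% of all 13306 genes were called. Neither call held in an exact test or within a single library series, as given below. Ly6i had 246 counts in the 6 oral vehicle libraries, which ran from 0.0454 to 3.86 CPM with a median of 1.76, and 18 counts in the 6 powder libraries, which ran from 0 to 0.376 CPM with a median of 0.0895. In the fit of all 42 non-injected colon libraries it was 14.2-fold lower with powder (log2 difference -3.83 ± 0.84 SE, adjusted p = 0.00439). It passed the filter on low counts only there: with the 12 libraries of these 2 groups alone it was filtered out and had no test. A two-sided exact permutation test of the 2 groups gave p = 0.0693 (0.277 after adjustment over 24 such tests). The vehicle libraries formed a high set of 3 (3.19 to 3.86 CPM) and a low set of 3 (0.0454 to 0.324 CPM), and the low set overlapped the powder libraries.

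Pinlyp at day 4 in colon ran from 8.9 to 41.7 CPM (median 27.3) with vehicle and from 7.17 to 18.2 CPM (median 9.97) with powder. The groups overlapped, and the level with powder was 2.23-fold lower (log2 difference -1.15 ± 0.38 SE, adjusted p = 0.0402 with edgeR, and an exact permutation p of 0.0541, 0.277 after adjustment over the 24 tests). The call was lost in 5 of 6 fits that left out 1 replicate number of each group (numbers 1, 3, 4, 5 and 6), with adjusted p from 0.0231 to 0.182 over the 6 fits. The 1568 genes called in this comparison became 622, 548, 985 and 633 without number 1, 3, 4 or 5. Within library series 1 and series 2 alone, neither gene passed (adjusted p = 0.124 and 0.07 for Ly6i, 0.243 and 0.189 for Pinlyp), with log2 differences of -4.33 and -3.64 for Ly6i and of -1.04 and -1.26 for Pinlyp. Ly6al ran from 4014 to 5861 CPM with vehicle and from 2832 to 5262 CPM with powder, a log2 difference of -0.39 ± 0.20 SE (adjusted p = 0.189). Its exact permutation p was 0.0238, and 0.1905 after adjustment over the 24 tests.

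Neutrophil markers also had a lower median with powder in colon at day 4, with overlapping ranges. The summed level of S100a8, S100a9, Csf3r, Cxcr2 and Mpo, all 5 of which were measured, ran from 4.81 to 101 CPM (median 27.7) with vehicle and from 2.26 to 19.1 CPM (median 4.42) with powder in colon at day 4. Macrophage markers summed to medians of 183 and 248 CPM, and T cell markers, of which 4 of 6 were in the tables, to 1.14 and 0.845 CPM. No neutrophil marker was at 0 in either group, and the part of these cells in the fall of Ly6i and Pinlyp was not tested. In jejunum at day 4, where Ly6i was highest, the neutrophil sum had medians of 1.42 CPM with vehicle and 1.62 CPM with powder.

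At day 7 in colon, 0% of all genes were called. Ly6i ran from 4.14 to 14.5 CPM with vehicle and from 1.41 to 3.44 CPM with powder, and the 2 groups did not overlap. For how many of all genes these groups also did not overlap was not counted, so the gap is a description. The fitted difference was -1.53 ± 0.65 SE on the log2 scale with an unadjusted p of 0.0249 and an adjusted p of 1.00. An exact two-sided permutation test over the 12 libraries gave p = 0.00216, the smallest that 6 against 6 allow, and 0.052 after adjustment over the 24 exact tests of the 3 genes in 8 treatment comparisons. Pinlyp and Ly6al differed by -0.12 ± 0.37 SE and 0.12 ± 0.20 SE (adjusted p = 1.00 for both).

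In jejunum none of the 3 genes was called with powder by edgeR's test. At day 4, where 0.008% of all genes were called, Ly6al differed by 0.36 ± 0.57 SE, Ly6i by 0.18 ± 0.44 SE and Pinlyp by 0.56 ± 0.42 SE on the log2 scale (adjusted p = 1.00 for each). The 95% interval of Pinlyp ran from -0.30 to 1.42, and its powder libraries (26.7 to 36.3 CPM) were closer together than its vehicle libraries (9.08 to 35.5 CPM). The exact permutation test of Pinlyp gave p = 0.0173, and 0.1905 after adjustment over the 24 tests. At day 7, with 0.008% of all genes called, the differences were 0.73 ± 0.56 SE, 0.21 ± 0.46 SE and -0.21 ± 0.43 SE in the same order. Their 95% intervals ran from -0.41 to 1.87, from -0.72 to 1.14 and from -1.09 to 0.66.

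Whether the powder acted differently in the 2 tissues was tested as a difference of differences, added after the values had been seen. At day 4 the log2 change of Ly6i was higher in jejunum than in colon by 3.97 ± 0.93 SE (adjusted p = 0.0369), where 0.4% of genes were called. That call was lost in 5 of 6 fits that left out a replicate number (numbers 1, 2, 3, 5 and 6, adjusted p from 0.0496 to 0.199 over the 6 fits) and within each library series (0.136 and 0.212). Ly6al and Pinlyp differed between tissues by 0.73 ± 0.61 SE and 1.70 ± 0.57 SE (adjusted p = 0.617 and 0.165). At day 7, with 0% of genes called, the values were 0.61 ± 0.61 SE for Ly6al, 1.75 ± 0.80 SE for Ly6i and -0.08 ± 0.57 SE for Pinlyp.

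The injection was compared with its own vehicle in the same way, and 0% of genes were called in colon at day 4, 0% in colon at day 7, 0% in jejunum at day 4 and 0% in jejunum at day 7. None of the 12 values of the 3 genes had an unadjusted p under 0.05, and DESeq2 called none of the 10 for which it gave an adjusted p. Ly6al differed by -0.11 ± 0.23 SE and -0.13 ± 0.23 SE in colon and by -0.18 ± 0.52 SE and 0.67 ± 0.52 SE in jejunum, at day 4 and day 7. For Ly6i the values were -0.77 ± 0.70 SE, 0.09 ± 0.66 SE, -0.41 ± 0.58 SE and 0.50 ± 0.61 SE in the same order. Pinlyp gave -0.36 ± 0.33 SE, 0.09 ± 0.33 SE, 0.47 ± 0.48 SE and 0.49 ± 0.49 SE. In jejunum at day 7, replicates 2 and 4 of the injected vehicle had 41.9 and 54.6 CPM of Ly6al beside 356 to 860 CPM in the other libraries of the group, and 0.395 and 0.191 CPM of Pinlyp beside 5.97 to 9.27 CPM.

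From day 4 to day 7 the 3 genes took different courses. Ly6i rose in colon and fell in jejunum, in both the oral and the injected arms, averaged over drug and vehicle. In colon it was 8.97-fold higher at day 7 in the oral arms (log2 difference 3.17 ± 0.54 SE, adjusted p = 9.53e-06, mean 1.01 to 4.75 CPM) and 3.29-fold higher in the injected arms (1.72 ± 0.49 SE, adjusted p = 0.00568, mean 1.6 to 5.16 CPM). In jejunum it was 4.31-fold lower in the oral arms (-2.11 ± 0.33 SE, adjusted p = 3.93e-06) and 6.01-fold lower in the injected arms (-2.59 ± 0.44 SE, adjusted p = 3.97e-05). Libraries of the 2 days overlapped in each of these comparisons. The oral fold in colon averages log2 values over both arms, and powder at day 4 held only 18 counts of Ly6i. Group means at day 4 and day 7 were 1.88 and 7.01 CPM with vehicle and 0.128 and 2.49 CPM with powder. In library series 1 alone the oral jejunal fall of Ly6i was not called (-1.38, adjusted p = 0.0634).

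Pinlyp fell in jejunum and did not pass the test in colon. Its jejunal level was 3.39-fold lower at day 7 in the oral arms (log2 difference -1.76 ± 0.31 SE, adjusted p = 2.91e-05, but -1.54 and 0.0799 in library series 1 alone) and 4.68-fold lower in the injected arms (-2.23 ± 0.35 SE, adjusted p = 1.99e-05), where the 12 libraries at day 7 (0.191 to 10.9 CPM) all lay below the 12 at day 4 (11.8 to 36.3 CPM). For how many other genes the days did not overlap was not counted. The colonic differences of Pinlyp were -0.01 ± 0.27 SE and -0.22 ± 0.24 SE (adjusted p = 0.981 and 0.442). Ly6al fell in colon of the injected arms, 1.79-fold (-0.84 ± 0.16 SE, adjusted p = 0.000232, mean 6035 to 3400 CPM), and did not pass in the oral arms (-0.03 ± 0.14 SE in colon, -0.26 ± 0.40 SE in jejunum) or in injected jejunum (-0.64 ± 0.37 SE, adjusted p = 0.134). These comparisons were broad: 55.2% of genes were called in oral colon, 53.7% in oral jejunum, 51.9% in injected colon and 63.5% in injected jejunum, so 1, 2, 2 and 2 calls among 3 genes are near the background.

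The opposite courses of Ly6i held in the test of the difference itself, also added after the values had been seen. Its log2 change from day 4 to day 7 was lower in jejunum than in colon by 5.23 ± 0.63 SE in the oral arms (adjusted p = 1.37e-09, 35.6% of genes called) and by 4.34 ± 0.67 SE in the injected arms (adjusted p = 8.16e-06, 27.1% of genes called). The size of the oral value also rests on powder colon at day 4, where Ly6i was near 0. Pinlyp differed between the tissues by 1.72 ± 0.41 SE (adjusted p = 0.000696) and 2.05 ± 0.43 SE (adjusted p = 0.000426), also lower in jejunum. For Ly6al the values were -0.20 ± 0.43 SE and 0.15 ± 0.41 SE (adjusted p = 0.749 and 0.816).

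Marker levels of other cell types are given beside these changes, and their part in the result was not tested. The neutrophil summed median was 27.7 and 4.42 CPM (oral vehicle and powder) at day 4 and 34.6 and 40.8 CPM at day 7 in colon, and 1.42 and 1.62 CPM at day 4 and 5.89 and 6.04 CPM at day 7 in jejunum, where Ly6i fell. In the injected arms (vehicle and injection) it was 61.4 and 14.1 CPM at day 4 and 15.1 and 18.9 CPM at day 7 in colon, and 1.88 and 2.26 CPM at day 4 and 2.05 and 2.90 CPM at day 7 in jejunum. T cell markers, 4 of 6 in the tables, were lower at day 7 in jejunum, as Ly6i and Pinlyp were: from medians of 1.03 to 0.18 CPM with oral vehicle, 1.71 to 0.446 with powder, 1.74 to 0.391 with injected vehicle and 1.17 to 0.319 with the injection. Cd2 was at 0 in oral vehicle jejunum at both days. Macrophage markers in jejunum went from 163 to 70.3, 102 to 69.0, 105 to 93.0 and 147 to 60.6 CPM in the same order. The mitochondrial share moved with the day, from group medians of 8.33% and 9.62% (oral vehicle and powder) at day 4 to 3.8% and 4.23% at day 7 in colon. With its log2 value as a covariate, the day difference of Ly6i was 1.13 in oral colon (adjusted p = 0.679), 1.498 in injected colon (0.0721) and -1.90 in injected jejunum (0.189), and that of Ly6al in injected colon was -0.50 (0.1). Day and mitochondrial share cannot be told apart for these results.

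Jejunum and colon were compared within the treated and vehicle rats of a day. Ly6al was chosen partly for a difference between the tissues, and its non-irradiated medians were 3111 CPM in colon and 0.702 CPM in jejunum. Its p-values here are thus no independent evidence of a tissue difference. Ly6al was lower in jejunum in all 4 comparisons, by 4.73-fold and 5.45-fold in the oral arms at day 4 and day 7 and by 6.37-fold and 5.72-fold in the injected arms, with adjusted p = 4.15e-09, 5.48e-10, 4.34e-10 and 1.99e-09. No jejunum library reached the lowest colon library of the same arms and day, which were closest in the oral arms at day 4 (2380 against 2832 CPM). These folds depend on the scaling. Library totals in place of TMM factors shift every gene by -0.519, -0.319, -0.599 and -0.477 on the log2 scale in these comparisons, and by 0.109 to 0.446 between the days. With them the differences of Ly6al were -2.79 and -2.73 on the log2 scale in the oral arms and -3.30 and -2.87 in the injected arms, beside -2.24, -2.45, -2.67 and -2.52. Ly6i at day 7 in the oral arms passed with library totals (-0.997, adjusted p = 0.0258). Ly6i was 23.6-fold and 14.5-fold higher in jejunum at day 4 in the oral and injected arms (log2 difference 4.56 ± 0.48 SE and 3.86 ± 0.51 SE, adjusted p = 2.24e-13 and 7.54e-09), and at day 7 it did not pass (-0.67 ± 0.40 SE and -0.49 ± 0.45 SE, adjusted p = 0.14 and 0.334). The oral fold at day 4 includes powder colon, where Ly6i was near 0. With oral vehicle alone the means were 12.8 CPM in jejunum and 1.88 CPM in colon. Pinlyp did not pass at day 4 (0.57 ± 0.29 SE and 0.39 ± 0.30 SE, adjusted p = 0.067 and 0.237) and was 2.21-fold and 3.15-fold lower in jejunum at day 7 (-1.15 ± 0.29 SE and -1.66 ± 0.31 SE, adjusted p = 0.00051 and 9.02e-06). Of all genes, 70.7% and 62.8% were called in the oral arms at day 4 and day 7, and 71% and 73.3% in the injected arms, so 2 of 3 calls in each comparison are near the background.

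**Figure D3:**
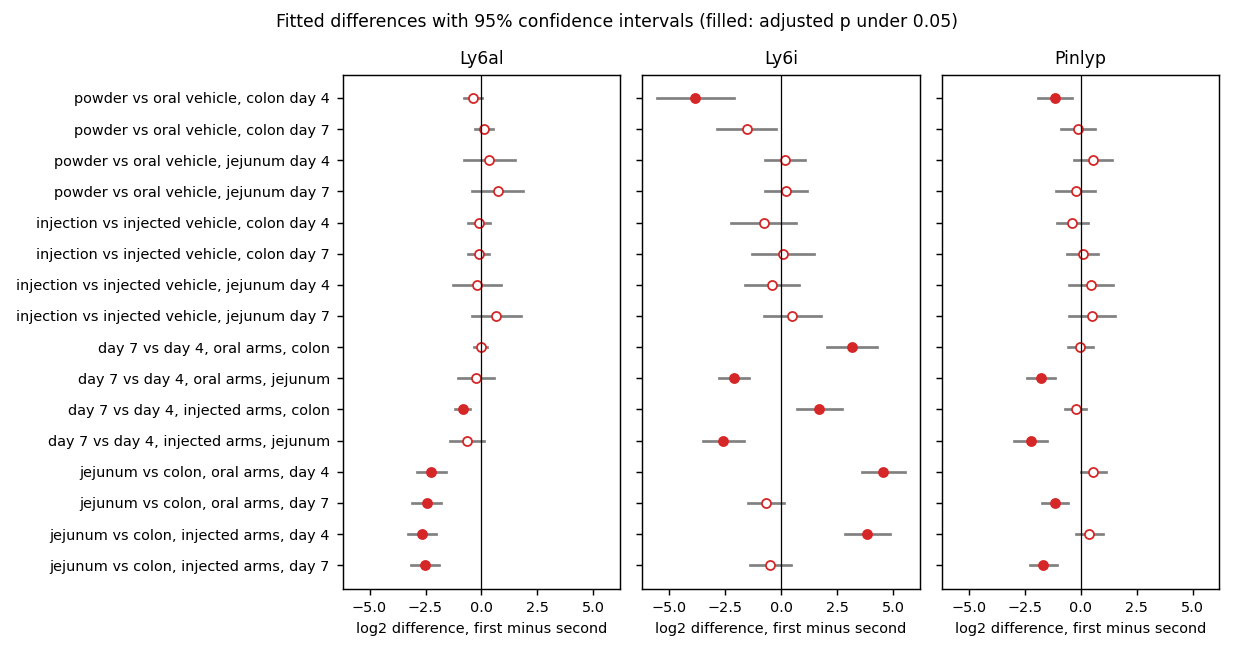
Log2 differences (first group minus second) of Ly6al, Ly6i and Pinlyp in the 16 planned comparisons, with 95% confidence intervals of the edgeR fit; filled points have an adjusted p under 0.05. Ly6al lies left of 0 in all 4 tissue comparisons, and Ly6i lies right of 0 for day 7 against day 4 in colon and left of it in jejunum.

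Libraries of a group differed widely, and the 3 genes were compared in how they differed. The deviations of log2(CPM + 0.5) from the group mean were correlated over the 60 irradiated libraries of each tissue, with two-sided permutation tests within groups and adjustment over 9 relations. In jejunum Ly6al moved with Ly6i (Pearson r = 0.68, Spearman rho = 0.692) and with Pinlyp (r = 0.78, rho = 0.684), each with a permutation p of 1e-05, the smallest the 100000 permutations can give (adjusted p = 4.5e-05). Without the 2 libraries farthest from the median of Ly6al the values were 0.598 and 0.75. Within library series 1, 2 and 3 alone, Ly6al with Ly6i gave r of 0.849, 0.736 and 0.504, and Ly6al with Pinlyp 0.832, 0.349 and 0.857. In series 2 alone neither relation passed after adjustment. With deviations and permutations taken within group and library series together, added after the values were seen, r was 0.615 and 0.798 (permutation p = 2e-05 and 1e-05, adjusted 9e-05 for both). Ly6i and Pinlyp were more loosely related in jejunum (r = 0.316, rho = 0.343, permutation p = 0.0108 and 0.00977, adjusted 0.0243 and 0.022), with r of 0.544, 0.077 and 0.101 within series and 0.382 without the 2 farthest libraries, so this relation did not hold within series 2 and 3. Within group and series together it was 0.229 (permutation p = 0.112, adjusted 0.169).

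In colon the strongest relation was that of Ly6i with Pinlyp (r = 0.579, rho = 0.514, permutation p = 6e-05 and 0.00046, adjusted 0.00018 and 0.00138). It was 0.497 without the 2 farthest libraries and 0.544, 0.346 and 0.606 within series, and 0.521 within group and series together (permutation p = 0.00119, adjusted 0.00357). In series 1 and in series 2 alone this relation did not pass after adjustment. Ly6al with Ly6i gave r = 0.28 and rho = 0.318 (permutation p = 0.0252 and 0.0173, adjusted 0.0377 and 0.0312), with 0.178, -0.011 and 0.437 within series and 0.26 without the 2 farthest libraries, so it did not hold within series 2, and within group and series together it was 0.268 (permutation p = 0.0454, adjusted 0.0818). Ly6al with Pinlyp was negative in colon (r = -0.332, rho = -0.226, permutation p = 0.0176 and 0.0996, adjusted 0.0317 and 0.128). Without the 2 farthest libraries r was -0.145 and did not pass, so its size depended on these libraries. It was -0.447, -0.715 and -0.2 within series, where it did not pass either. Within group and series together it was -0.402 (permutation p = 0.0163, adjusted 0.0366).

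For each gene, colon was compared with jejunum over 60 pairs of libraries that share a number. Ly6i gave r = 0.389 and rho = 0.323 (permutation p = 0.0303 and 0.0401, adjusted 0.039 and 0.0601), but 0.541, -0.262 and 0.204 within series and 0.319 without the 2 farthest pairs, so it did not hold within series 2. Within group and series together it was 0.217 (permutation p = 0.249, adjusted 0.321). Ly6al gave r = -0.027 and rho = 0.068 (permutation p = 0.874 and 0.644, adjusted 0.874 and 0.644). For Pinlyp the values were 0.179 and 0.124 (permutation p = 0.196 and 0.357, adjusted 0.221 and 0.402).

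**Figure D4:**
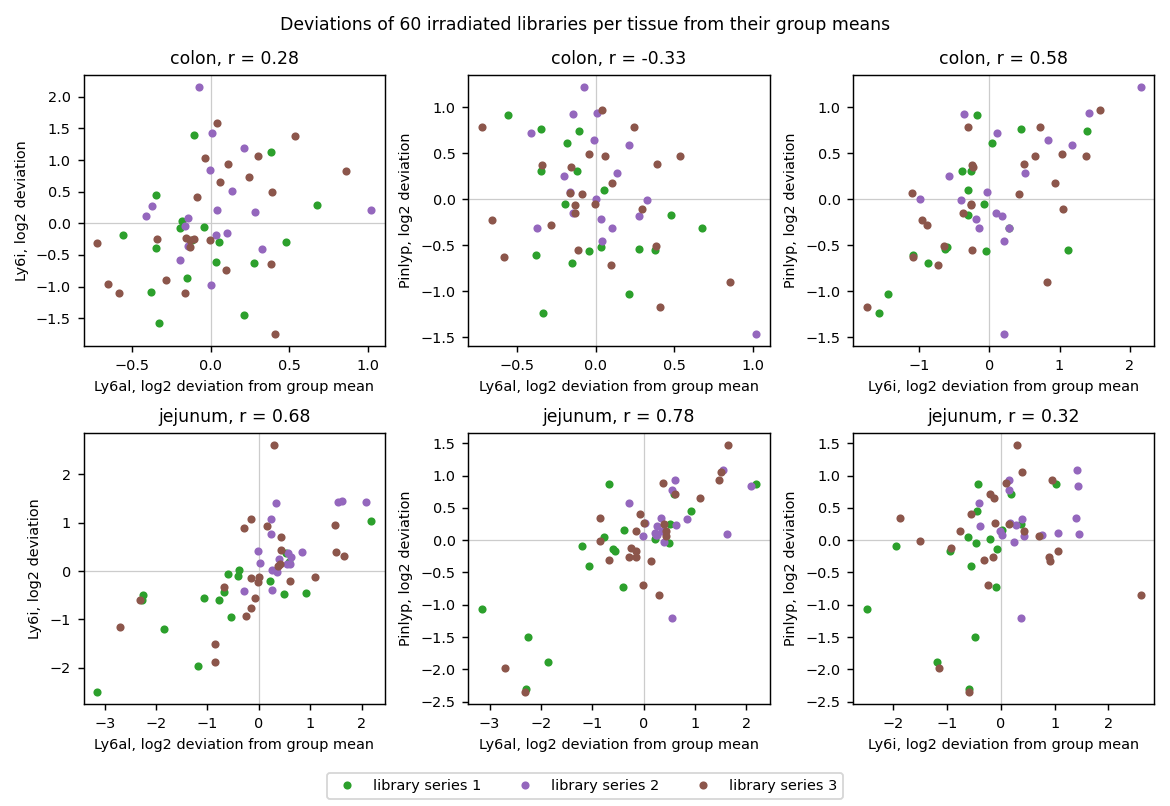
Deviation of each irradiated library from its group mean in log2(CPM + 0.5), for pairs of genes in colon (top, 60 libraries) and jejunum (bottom, 60 libraries), coloured by library series. The jejunal clouds of Ly6al with Ly6i (r = 0.68) and with Pinlyp (r = 0.78) are drawn out along the diagonal.

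Over the 22 groups, the genes whose group means of log2(CPM + 0.5) were most like those of Ly6al, among 12901 genes with at least 1 CPM in a group, were Ccnd1 (cyclin D1, r = 0.965), Zdhhc17 (0.964), Mecom (a transcription factor, 0.963), Il17re (a receptor subunit for interleukin 17C, 0.948) and Arhgef3 (0.944). Ccnd1, for example, had 173 CPM in non-irradiated colon, 8.07 CPM in non-irradiated jejunum and 81.1 CPM in irradiated untreated jejunum at day 4. In the same groups Mecom had 88.0, 1.78 and 43.1 CPM and Il17re 43.8, 0.686 and 14.6 CPM, so Ly6al was not alone in such a jejunal rise. For Ly6i they were Mad2l1bp (0.947), Slc35f6 (0.925), Dsel (0.918), RGD1305464 (0.907) and Map4k4 (a kinase, 0.902). Those of Pinlyp were Lama5 (a laminin chain of basement membranes, 0.972), Mybl1 (0.96), Tnfrsf22 (0.96), Phlda3 (a known p53 target, 0.957) and Gbp4 (an interferon-induced GTPase, 0.951). Lama5 went from 3.12 to 69.2 CPM in colon and from 1.23 to 96.7 CPM in jejunum, from non-irradiated rats to irradiated untreated rats at day 4. All 22 points share the tissue and the irradiation, so r is a description.

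The rest of the Ly6/uPAR superfamily was examined with a list of 46 other genes, of which 32 were in the tables and 14 passed the filter on low counts in colon and 12 in jejunum. In irradiated untreated rats 7 rose and 2 fell in colon at day 4, where 24.6% of all genes rose and 22.3% fell, and 6 rose and 2 fell at day 7, where 32.9% and 30.8% did. In jejunum 10 of 12 rose and 0 fell at day 4 (25% and 18.9% of all genes), and 7 rose and 0 fell at day 7 (31.4% and 27.4%). The median log2 change of the list was 0.81, 0.56, 1.89 and 1.49 in this order, beside 0.02, 0.02, 0.05 and 0.01 over all genes tested. Since genes had to pass the filter, the counts speak of the expressed members alone.

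Cd59, which protects cells from complement, rose in both tissues, from 187 ± 30.2 (SD, n = 6) to 821 ± 241 CPM in colon and from 28.7 ± 5.46 to 393 ± 189 CPM in jejunum at day 4 (4.37-fold and 12.8-fold, adjusted p = 6e-10 and 1.69e-11). Plaur, the urokinase receptor, rose 3.25-fold and 5.16-fold at day 4 (adjusted p = 0.00176 and 0.000284). At day 7 it did not pass, with 83.3 CPM in colon and 45.2 CPM in jejunum. Ly6e, a Ly6 gene known to respond to interferon, rose in all 4 comparisons, by 1.56 ± 0.31 SE and 1.77 ± 0.31 SE on the log2 scale in colon and by 1.59 ± 0.26 SE and 1.36 ± 0.25 SE in jejunum. Ly6g6c fell in colon (-1.51 ± 0.41 SE at day 4, adjusted p = 0.00308) and rose in jejunum (3.00 ± 0.58 SE, adjusted p = 0.000123). Lypd8, a secreted protein that keeps bacteria from the colonic surface, had 13770 ± 1940 CPM in non-irradiated colon and 1980 ± 540 CPM in non-irradiated jejunum. It did not pass in colon (17090 and 9760 CPM at day 4 and day 7) and rose 1.53-fold and 1.71-fold in jejunum (adjusted p = 0.0307 and 0.00525).

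RGD1565410, which the RefSeq table lists as Ly6cl1 and which spans Ly6al, was looked at after its values had been seen. It had 0.652 ± 0.16 CPM in non-irradiated colon and 2.16 ± 0.567 CPM in irradiated untreated colon at day 4, and 0.187 ± 0.138 and 4.63 ± 2.01 CPM in jejunum (SD, n = 6 each). Of the neighbours of Pinlyp, Irgq had 36 and 62.7 CPM in colon and 50.9 and 75.7 CPM in jejunum in the same groups, and Xrcc1 29.5 and 40.1 CPM and 16.7 and 30.4 CPM.

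Phospholipase A2 genes, the enzymes that the name of Pinlyp refers to, were called in both directions. Of 22 genes all were in the tables, and 15 were tested in colon and 16 in jejunum. In irradiated untreated rats 4 rose and 3 fell in colon at day 4, and 5 rose and 3 fell at day 7. In jejunum 6 rose and 3 fell at day 4, and 6 rose and 6 fell at day 7. Of all genes 24.6% rose and 22.3% fell in colon at day 4, and 32.9% and 30.8% at day 7, against 25% and 18.9%, and 31.4% and 27.4%, in jejunum. The median log2 difference of the list was 0.25 and -0.104 in colon and 0.519 and 0.068 in jejunum, beside 0.017, 0.018, 0.054 and 0.015 over all genes. Pla2g2a, the secreted group IIA enzyme with antibacterial activity, rose from 5.84 ± 9.33 to 2383 ± 2156 CPM in colon at day 4 and to 4374 ± 2079 CPM at day 7 (266-fold and 578-fold, adjusted p = 4.29e-08 and 1.22e-09), and 9.31-fold and 23.5-fold in jejunum (adjusted p = 0.0052 and 0.000197). Pla2g6, a calcium-independent enzyme, fell in all 4 comparisons, by 0.59 to 0.85 on the log2 scale. Pla2g10 fell in jejunum, by 3.46 ± 0.53 SE at day 4 and 2.14 ± 0.48 SE at day 7 on the log2 scale (adjusted p = 4.48e-06 and 0.000298).

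Genes of the interferon gamma response, 16 of 17 in the tables, rose in colon at day 4 in 11 of 15 tested cases with 0 falling, and at day 7 in 7 with 2 falling. In jejunum 7 of 14 rose and 3 fell at day 4, and 3 rose and 4 fell at day 7. The shares of all genes are those given for the phospholipases, and the median log2 differences of the list were 1.093 and 0.457 in colon and 0.806 and -0.484 in jejunum. Gbp2, an interferon-induced GTPase, rose from 1.87 ± 1.21 to 213 ± 221 CPM in colon at day 4 (adjusted p = 8.71e-08), and the chemokine Cxcl10 rose from 1.36 ± 0.521 to 34.5 ± 17.8 CPM in jejunum at day 4 (adjusted p = 5.14e-09). Fetal-like regeneration genes, 14 of 14 in the tables, rose in 10 of 13 tested cases in colon at day 4 and in 12 of 13 at day 7, with 0 falling at either day. In jejunum 7 of 11 rose and 0 fell at day 4, and 4 rose and 1 (Ccn1) fell at day 7, with medians of 2.858 and 3.286 in colon and 1.432 and 0.848 in jejunum beside the same shares of all genes. Anxa1 rose in colon from 1.34 ± 0.611 to 174 ± 240 CPM at day 4 (adjusted p = 5.63e-08), and Clu in jejunum from 1.16 ± 0.696 to 56.3 ± 59.3 CPM (adjusted p = 3.63e-05).

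Some members of these lists were called lower with powder in colon at day 4, where 11.8% of all genes were called in either direction. In library series 1 alone this comparison called 3 genes in place of 1568, and the list genes were not examined under other settings. In the Ly6/uPAR list 4 of 14 fell, Lynx1, Slurp1, Cd59 and Plaur, and 0 rose. Plaur went from 202 ± 165 to 61.2 ± 27.2 CPM (adjusted p = 0.011) and Cd59 from 871 ± 192 to 531 ± 88.9 CPM (adjusted p = 0.0177). Of the phospholipases 3 of 15 fell, Pla2g2a, Pla2g12b and Pla2g15, and Pla2g2a went from 2532 ± 1751 to 613 ± 615 CPM (adjusted p = 0.0431). Of the interferon gamma genes 5 of 15 fell, Gbp2, Gbp5, Ido1, Socs1 and Cd274, with Gbp2 from 251 ± 293 to 25.9 ± 26.7 CPM (adjusted p = 0.00244). In the fetal-like list 2 of 13 fell, Anxa1 and Ereg, with Anxa1 from 195 ± 257 to 32.6 ± 23.7 CPM (adjusted p = 0.00907). The counts of 3 of 15 phospholipases and 2 of 13 fetal-like genes are near the share of all genes. In the other 7 treatment comparisons edgeR called 0 of 88, 105, 99 and 85 tests in the 4 lists, with 8, 4, 8 and 7 at an unadjusted p under 0.05. The share of all genes under that limit ran from 1.73% (injection, colon, day 7) to 8.31% (injection, jejunum, day 4) in these comparisons. DESeq2 was run for the 3 genes and the counts over all genes and not for the lists.

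From day 4 to day 7, 55.2% of all genes were called in oral colon, 53.7% in oral jejunum, 51.9% in injected colon and 63.5% in injected jejunum, in either direction. In the Ly6/uPAR list 4 of 14 rose and 2 fell in oral colon, 4 and 4 of 12 in oral jejunum, 2 and 5 of 13 in injected colon and 3 and 4 of 12 in injected jejunum. Ly6g6c fell in jejunum with Ly6i, from 12.9 to 0.748 CPM in the oral arms (adjusted p = 4.05e-09) and from 19.7 to 3.03 CPM in the injected arms (adjusted p = 0.000262). Of the phospholipases 3 of 15 rose and 4 fell in oral colon, 3 and 6 of 16 in oral jejunum, 0 and 3 of 15 in injected colon and 5 and 7 of 14 in injected jejunum. Of the interferon gamma genes 2 rose and 7 fell of 15, 0 and 10 of 14, 0 and 11 of 15, and 0 and 7 of 13 in the same order. Of the fetal-like genes 8 rose and 1 fell of 13 in oral colon, with 3 and 3 of 11, 2 and 3 of 13, and 3 and 5 of 12 in the others. The median log2 differences, in the same order, were 0.41, 0.11, -0.56 and -0.28 for the Ly6/uPAR list, 0.012, -0.175, -0.126 and -0.683 for the phospholipases, -0.058, -0.81, -1.05 and -0.565 for the interferon gamma genes and 1.12, -0.297, -0.133 and -0.489 for the fetal-like genes, beside 0.013, 0.025, -0.043 and 0.004 over all genes.

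Between the tissues 70.7% and 62.8% of all genes were called in the oral arms at day 4 and day 7, and 71% and 73.3% in the injected arms, in either direction. Of the Ly6/uPAR list 8 of 15 tested members were lower in jejunum and 3 higher in the oral arms at day 4, and 10 and 4 at day 7. In the injected arms 10 were lower and 3 higher at day 4, and 10 and 1 at day 7. Lypd8 was lower in jejunum in all 4, and Ly6g6c was higher in all 4, like Ly6i at day 4. Of the 17 tested phospholipases 7, 7, 9 and 8 were lower and 6, 5, 5 and 4 higher in the same order. Of the 15 interferon gamma genes 6, 5, 6 and 4 were lower and 6, 9, 5 and 7 higher, and of the 13 fetal-like genes 7, 9, 7 and 9 were lower and 3, 0, 1 and 0 higher. The median log2 differences (jejunum minus colon) were -0.818, -1.322, -1.317 and -1.16 for the Ly6/uPAR list, -0.282, -0.159, -0.349 and -0.434 for the phospholipases, 0.03, 0.538, 0.045 and 0.01 for the interferon gamma genes and -1.117, -1.974, -1.492 and -1.933 for the fetal-like genes, beside -0.094, -0.037, -0.06 and -0.14 over all genes.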

How the data were processed

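RNA of 132 libraries from rat colon and jejunum epithelium was sequenced, and the authors deposited 2 tables of raw counts per gene with 21837 genes each. The tables hold 168 library columns, since 36 libraries stand in both, and each library was used once. The submitters' processing notes name STAR 2.7.10a and build mRatBN7.2. For the counting tool, annotation and strand: not given in the sources used here. Groups came from the labels. The 3 genes, the gene lists and the tests were chosen with earlier results of these data known.

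Counts were fitted with edgeR 4.0.16 in R 4.3.3 (limma 3.58.1), using TMM factors, filterByExpr and two-sided quasi-likelihood F tests, with Benjamini-Hochberg adjustment over all genes of a fit and a threshold of 0.05. Separate fits held the 42 non-injected libraries of a tissue with the library series as a term, the 24 injected libraries of a tissue, and both tissues together (84 and 48 libraries) for comparisons between tissues. The scripts were tested on simulated counts. SE is the log2 difference divided by the square root of F. Levels are CPM with TMM factors, and plots and correlations use log2(CPM + 0.5).

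The text names the 3 genes, up to 4 called genes with the smallest p per list and comparison with a mean of at least 1 CPM in a group, the 5 genes most like each of the 3 over the groups, and the most abundant Ly6/uPAR genes. Others, including list genes given as examples at a second time or tissue, were named after their values were seen. Depth of 17.2 to 19.8 M counts per library limits precision for genes of a few counts. Alternatives were DESeq2 1.42.0, no filter, the groups of a comparison alone, each library series alone, a mitochondrial covariate, library totals without TMM factors, a replicate block and leaving out each replicate number. Correlations were also taken within group and library series together.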

Additional observations from a re-analysis of the deposited data

Results flagged for a closer look

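In 6 of 66 sets of 6 libraries, 1 library lay far from the other 5, and chance alone does so in about 1 in 20. Ly6al in non-irradiated jejunum had 1.253 CPM in replicate 1, beside 0.577 to 0.742 CPM. In powder-treated jejunum at day 7, replicate 3 was lowest in Ly6al (177.7 CPM beside 1013 to 1307 CPM) and in Pinlyp (1.806 CPM beside 6.41 to 10.3 CPM). The same library had 0.129 CPM of neutrophil markers (others 3.21 to 24.8 CPM) and 0.516 CPM of Clu (others 11.8 to 49.4 CPM). In powder-treated colon at day 7, replicate 6 had 8656 CPM of Ly6al beside 3287 to 4365 CPM. It also had 3785 CPM of Slc26a3, a chloride exchanger of mature colonocytes (others 58.7 to 927 CPM), and 23630 CPM of Lypd8 (others 5765 to 9321 CPM). In injection-treated colon at day 7, replicate 6 was highest in Ly6al (4624 CPM beside 2854 to 3175 CPM) and in Ly6i (12.92 CPM beside 3.47 to 3.92 CPM), with a mitochondrial share of 10.9% (others 4.81% to 7.96%).

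The tissues differed in the change from day 4 to day 7, jejunum minus colon, by -5.23 for Ly6i and -1.719 for Pinlyp in the oral arms and by -4.344 and -2.048 in the injected arms, on the log2 scale. They differed in the change with powder at day 4 by 3.968 for Ly6i.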

How the results depend on the processing

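Of 855 values of the 3 genes under other settings, 822 stayed on the same side of the threshold, 27 lost the call, 6 gained one and 0 reversed with a call. Differences without a call in either setting count as the same even where their sign changed. The cause was not tested. The fall with powder in colon at day 4 was not called for Ly6i in series 1 (-4.33) or series 2 (-3.636) alone, nor for Pinlyp in either (-1.04, -1.261), with library totals (-1.083), a mitochondrial covariate (-0.904), no filter (-1.157) or the 2 groups alone (-1.154), and leaving out replicate numbers gave -1.331 to -0.959. With the covariate, Ly6i from day 4 to day 7 was 1.13 in oral colon, 1.498 in injected colon and -1.897 in injected jejunum, and Ly6al was -0.503 in injected colon. These calls were lost, as were those in oral jejunum in series 1 alone (-1.375 for Ly6i, -1.543 for Pinlyp). Pinlyp in jejunum against colon in the oral arms at day 4 was called with the groups alone (0.618) and with a replicate block (0.654, adjusted p = 0.0403), and ran from 0.496 to 0.785 without single numbers. The replicate block changed no other call of the 3 genes, gave 1500 genes against 1568 for powder in colon at day 4, 0 against 1 in jejunum at day 7 and 107 against 55 for the tissue difference of the powder effect at day 4, and kept the other counts within 1.5 times. The numbers were not taken as pairs: colon and jejunum libraries sharing a number correlated from -0.372 to 0.529 over 66 pairs, 33 over 0.1, and 26 of 66 correlated best with their own number, a hint from the data and not the design. Ly6i in the oral arms at day 7 was called with library totals (-0.997) and the groups alone (-0.69), and Pinlyp in the injected arms at day 4 with the covariate (0.891). The tissue difference of the powder effect on Ly6i was 5.088 and 3.328 in series 1 and 2, 4.105 with the groups alone and 3.211 to 4.706 without single numbers.

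Correlations that lost their call, in the order series 1, 2 and 3 alone where given, were as follows. Ly6al with Ly6i in colon gave 0.178, -0.011 (reversed) and 0.437, 0.26 without the 2 farthest libraries and 0.196 with a pseudocount of 0.05 CPM. Within group and series together it gave 0.268, jejunal Ly6i with Pinlyp 0.229 and Ly6i between tissues 0.217. Ly6al with Pinlyp in colon gave -0.447, -0.715 and -0.2, and -0.145 without the 2 farthest. Ly6i with Pinlyp gave 0.544 and 0.346 in colon (series 1 and 2), and 0.544, 0.077 and 0.101 in jejunum with 0.223 at a pseudocount of 5 CPM. In series 2, jejunal Ly6al gave 0.736 with Ly6i and 0.349 with Pinlyp. Ly6i between tissues gave 0.541, -0.262 (reversed) and 0.204, with 0.319 without the 2 farthest and 0.269 at a pseudocount of 5 CPM.

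Genes called overall moved most for powder in colon at day 4 (1568, and 3 in series 1, 25 in series 2, 913 with the covariate, 955 with the groups alone), for its tissue difference (55, from 0 to 192) and with the covariate for the days (7351 to 280 in oral colon, 6816 to 2619 in injected colon, 7735 to 730 in injected jejunum). Series alone gave 2381 in oral colon (series 2), 1536 against 6709 in oral jejunum and 2442 against 4885 for the day change between tissues (series 1), and that of the injected arms was 2281 against 3675 without number 3. DESeq2 called 2, 16 and 1 genes for powder in colon at day 7 and jejunum at day 4 and day 7, and 0, 0, 10 and 2 for the injection, where edgeR had 462, 521, 446, 475, 227, 1012 and 342 genes at an unadjusted p under 0.05. DESeq2 gave no adjusted p for Ly6i and Pinlyp with the injection in jejunum at day 4, and Ly6i was filtered out in the 2 groups of powder and vehicle in colon at day 4 alone.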
